A study of Caenorhabditis elegans with 4 samples.

Results

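Chromatin immunoprecipitation followed by sequencing (ChIP-seq) of CEY-2 left 229 autosomal peaks at the starts of noncoding RNA genes. They were taken from the 3000 peaks with the highest signal in the list called on all replicates pooled, which holds 25484 peaks in all. A peak was kept when it lay on an autosome, when its summit was within 500 bp of the start of a gene annotated as ncRNA, lincRNA or antisense RNA, and when the summit was not within 500 bp upstream of a protein-coding start. The 229 members are 9.33% of the 2454 autosomal peaks among the 3000. The other 2225 autosomal peaks, 686 of which lie upstream of coding starts, serve as the comparison. The members were thus chosen by pooled signal and by distance from a noncoding start, so both are given as description only. Peaks are not replicates of a condition, and neighbouring genes can share 1 peak.

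The worms were whole L4 hermaphrodites of Caenorhabditis elegans strain OP358, which carries the integrated transgene wgIs358 on an unc-119(tm4063) III background. The transgene makes CEY-2 with a GFP-FLAG tag at its C-terminal end, and the sonicated chromatin was recovered with an antibody against GFP. All 4 libraries belong to this 1 group and come from 3 biological replicates, 2 technical libraries of replicate 2 having been merged by the authors into 1 list. Worms without the transgene were not analysed here, the whole animal mixes all its tissues, and the labels do not name the promoter that drives the fusion.

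CEY-2 is a Y-box protein. Proteins of this family carry a cold shock domain that binds RNA and single-stranded DNA, and they were named after a promoter element with the core CCAAT. The C. elegans annotation holds very many short genes of the class ncRNA with no assigned function, beside long intergenic noncoding RNAs (linc genes) and antisense RNAs (anr genes). Many of the short ones lie in introns of coding genes or across other small RNA genes, such as those for transfer RNAs (tRNAs), which RNA polymerase III transcribes from promoter elements inside the gene called the A box and the B box.

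The sequences of 6 of the 15 highest members are shown because their summits hold the words that the results below count. Each is the 201 bp window centred on the summit in build ce11 (WBcel235), read 5′ to 3′ along the strand of the nearest noncoding gene. Capitals mark 4 words found by search on both strands. The first is CACGTG, the E-box, a binding word of basic helix-loop-helix proteins, which reads the same on both strands. The second is the GA word GAGAGA, which appears on the other strand as its reverse complement, TCTCTC. The third is TGATAA, a word bound by factors of the GATA family, with TTATCA on the other strand. The last is GTTCGA, the core of the B box, with TCGAAC on the other strand. D2023.12 had the highest signal of all members and 2 E-boxes, C08E8.15 had 4 GATA words, B0350.73 overlaps a tRNA gene, ZK829.13 and F40F9.14 each had an E-box, and F22E12.9 had GA words.
D2023.12 (chrV:11799360-11799560, plus strand): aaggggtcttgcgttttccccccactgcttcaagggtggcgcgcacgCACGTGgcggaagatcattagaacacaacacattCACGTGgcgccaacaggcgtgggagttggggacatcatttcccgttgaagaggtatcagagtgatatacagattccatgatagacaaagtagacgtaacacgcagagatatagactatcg
C08E8.15 (chrV:18346167-18346367, minus strand): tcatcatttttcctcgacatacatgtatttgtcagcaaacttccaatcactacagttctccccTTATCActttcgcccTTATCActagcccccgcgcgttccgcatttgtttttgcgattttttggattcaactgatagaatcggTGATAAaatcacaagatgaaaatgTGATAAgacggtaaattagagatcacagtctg
B0350.73 (chrIV:5967122-5967322, minus strand): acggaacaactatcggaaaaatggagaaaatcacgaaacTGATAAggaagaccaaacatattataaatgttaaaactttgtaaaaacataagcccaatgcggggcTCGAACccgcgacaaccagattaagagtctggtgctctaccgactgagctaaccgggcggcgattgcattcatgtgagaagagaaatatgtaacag
ZK829.13 (chrIV:11956405-11956605, plus strand): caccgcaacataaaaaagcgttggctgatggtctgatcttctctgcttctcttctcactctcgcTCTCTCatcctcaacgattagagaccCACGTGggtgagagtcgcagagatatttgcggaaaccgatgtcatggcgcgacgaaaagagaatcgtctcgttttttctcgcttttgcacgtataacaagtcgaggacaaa
F22E12.9 (chrV:10466653-10466853, minus strand): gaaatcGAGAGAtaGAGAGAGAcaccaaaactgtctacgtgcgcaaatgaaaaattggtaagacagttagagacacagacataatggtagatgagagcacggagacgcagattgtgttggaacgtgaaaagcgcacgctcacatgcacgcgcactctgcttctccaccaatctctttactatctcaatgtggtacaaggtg
F40F9.14 (chrV:9731134-9731334, plus strand): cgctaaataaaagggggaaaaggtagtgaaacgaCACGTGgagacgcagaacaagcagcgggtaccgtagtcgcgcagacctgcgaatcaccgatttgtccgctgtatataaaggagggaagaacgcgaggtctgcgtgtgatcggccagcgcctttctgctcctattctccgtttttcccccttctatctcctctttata

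The pooled signal, the peak caller's own value against its control, ran from 19.2 to 132 over the members with a median of 26.6, and from 19.2 to 163 over the other autosomal peaks with a median of 25.4. Every member interval was 390 bp wide. D2023.12, an ncRNA gene of 140 bp in an intron of the coding gene D2023.1, had a signal of 132 and stood at rank 23 of the pooled list. C08E8.15 followed with 117, at position -334 from its start and outside any coding gene. C17C3.23 had 87.6, with the start of sls-2.2, a gene for the spliced leader RNA SL2 that is joined to messages of operons, 145 bp away. B0350.73 had 86.8 and K08B12.7 had 82.9, its summit in an exon of dmd-7, a gene of the DM domain family. The remaining 10 of the 15 highest were ZK829.13, F22E12.9, T03F7.14, F26F12.11, T28B11.22, W06H8.16, T28B11.13, F40F9.14, WBGene00199919 (the ncRNA gene over the microRNA gene cel-mir-52) and T04C12.19, with signals from 78.5 down to 57.2. Of these 15, 11 lie on chromosome V, which holds 60 of the 229 members, while 38 lie on I, 47 on II, 37 on III and 47 on IV. Such counts were not made for all autosomal peaks, so they show no excess on any chromosome. The highest member of chromosome I was F48C1.12 with 56.6, in an intron of let-526, and that of chromosome III was F54F2.13 with 46.7, in an intron of zfp-1.

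At the threshold, the 3 members just inside were K03B8.17 with 19.4, W04D2.14 with 19.3 and Y53C12B.8 with 19.2. The 3 peaks that met the position rule just outside the 3000 were at linc-69 with 19.2, at mrpr-1 with 19.1 and at B0523.6 with 19.1. The values on both sides were nearly equal.

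The replicate lists show which members were found again. A member counted as found when a summit of that replicate's own 3000 highest peaks lay within 200 bp. These lists come from the same reads as the pooled list, so the counts are no independent support for the choice of members. In replicate 1, 108 of the 229 members were found, 47.2% (exact 95% interval 40.6 to 53.8), where 46.9% of all autosomal peaks of the 3000 were. In replicate 2 it was 158 members, 69.0% (62.6 to 74.9), against 62% of all autosomal peaks. In replicate 3 it was 112 members, 48.9% (42.3 to 55.6), against 43%. The shares of members were near that background in replicate 1 and a little above it in replicates 2 and 3, where the lower ends of the intervals lie close to it. All 3 replicates had 50 of the members, 21.8% (16.7 to 27.8), against 15.9% of all autosomal peaks, and 22 members, 9.61%, were in the 3000 of no replicate, against 11.5% of the other autosomal peaks. Each of those 22 had a summit in at least 1 of the full lists. All 3 full lists had a summit for 135 of the 229 members, 59.0%, against 56.2% of the other autosomal peaks. The authors' list of peaks that passed their threshold for irreproducible discovery rate held 61 members, 26.6%, against 20.4% of all autosomal peaks, which the rule fixes in part, since that list was also made from the highest peaks.

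C08E8.15 was the member whose lowest placing was best: it ranked 51 in replicate 1, 29 in replicate 2 and 27 in replicate 3, with signals of 32.0, 55.9 and 28.6 that are comparable only within a list. D2023.12 ranked 23, 26 and 57, and C17C3.23 ranked 47, 53 and 68. W06H8.16, B0350.73, K08B12.7, F26F12.11, F40F9.14, F16A11.13 and T03F7.14 complete the 10 members with the best lowest placing, all within rank 373 of every replicate. Other high members leaned on 1 or 2 replicates. F22E12.9 ranked 38 in replicate 2 and 90 in replicate 3 but had no summit within 200 bp anywhere in the list of replicate 1. T28B11.22 ranked 68 and 86 in replicates 2 and 3 but 2536 in replicate 1, and T28B11.13 ranked 139 and 102 but 1596. T04C12.19 went the other way, with rank 42 in replicate 1, 616 in replicate 2 and 2850 in replicate 3. F54F2.13, the highest member of chromosome III, ranked 67 in replicate 2 and 8963 in replicate 1, and had no summit within 200 bp in replicate 3. A second member at the same gene, with a signal of 35.5 and its summit at -284 bp from the start where the first was at -81 bp, had a summit of rank 286 within 200 bp in replicate 3, and the same replicate 1 and 2 summits as the first. Over all members, 15 were within rank 611 of every replicate, and 44 of the 50 found in all 3 replicates were among the 77 members with the highest pooled signal.

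**Figure D1:**
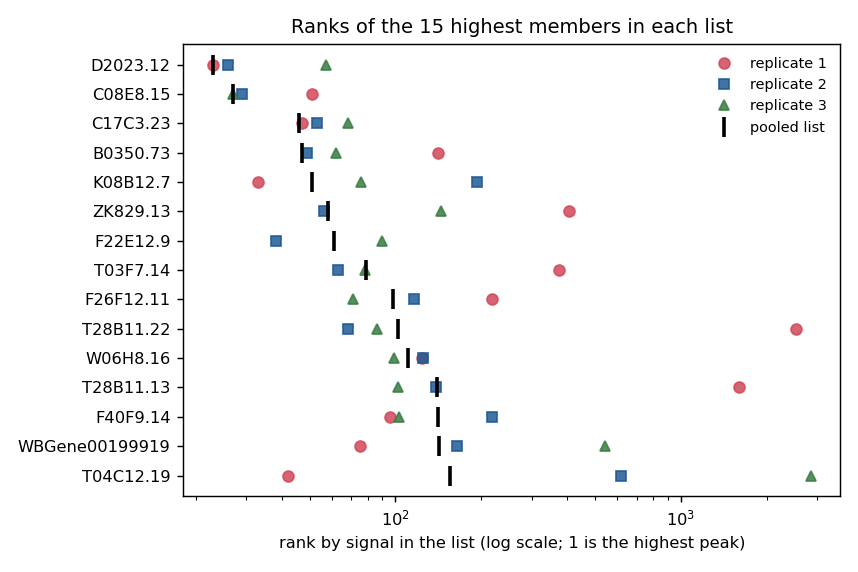
Ranks of the 15 highest members (rows, highest pooled signal at the top) by signal in the list of each replicate (circle, replicate 1; square, replicate 2; triangle, replicate 3) and in the pooled list (bar), on a log axis where 1 is the highest peak. The first 3 rows stay within rank 68 in every replicate, T28B11.22, T28B11.13 and T04C12.19 spread over more than 1 decade, and F22E12.9 has no circle.

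Applying the same rule to the 3000 highest peaks of each replicate alone gave 198 members in replicate 1, 243 in replicate 2 and 221 in replicate 3 (221 ± 22.5, mean ± SD, n = 3). Of these, 104, 156 and 113 had a summit within 200 bp of a pooled member. These replicate lists are used below to give a spread for features of the members.

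By annotation, 213 members had an ncRNA gene as the nearest noncoding start, 15 a lincRNA gene and 1 an antisense RNA gene. The nearest genes numbered 218, and 59 members had more than 1 noncoding start within 500 bp. Counted by gene, 381 of 5493 autosomal noncoding genes, 6.94% (6.28 to 7.64), had any autosomal summit of the 3000 within 500 bp of their start, where 960 of 17242 protein-coding genes, 5.57% (5.23 to 5.92), did. The share was 363 of 5244, 6.92%, for ncRNA genes, 15 of 156, 9.62% (5.48 to 15.4), for lincRNA genes, and 3 of 93, 3.23% (0.670 to 9.14), for antisense RNA genes. The intervals of these 3 classes overlap. Member summits alone, which leave out those upstream of coding starts, lay within 500 bp of the starts of 287 of the 5493 noncoding genes, 5.22%. Genes can share 1 peak and so are not independent, and the difference between noncoding and coding genes is description only.

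The members at linc genes had signals from 21.0 to 30.5. linc-91, next to the chromatin remodelling gene chd-7, held 2 member peaks with summits at -262 and -63 bp from its start and signals of 30.5 and 23.4. The farther summit ranked 991, 1053 and 378 in replicates 1 to 3. linc-151 ranked 161 in replicate 1 but 13639 in replicate 2 and 3260 in replicate 3, and linc-72 ranked 616 and 359 in replicates 1 and 3 with no summit in replicate 2. linc-37 had its summit 29 bp inside the gene, within an exon of zip-2 and 31 bp downstream of the zip-2 start. zip-2 encodes a bZIP transcription factor of the response to pathogens. linc-122 had its summit 354 bp upstream of its start and in the coding sequence of ifb-1, an intermediate filament gene. That summit was nearer to the ifb-1 start, 137 bp downstream of it, and was in the 3000 of no replicate. The other linc genes were linc-107, linc-60, linc-135, linc-108, linc-96, linc-27, linc-109 and linc-167. Of the 15 lincRNA peaks, 7, 8 and 7 were found in the 3000 of replicates 1, 2 and 3, near the 46.9%, 62% and 43% of all autosomal peaks. anr-52, within nep-26, had a signal of 20.8 and was found in replicates 2 and 3. The remaining 2 members named by symbol were srpr-1.1 with 31.6 and srpr-2.1 with 21.1. srpr-1.1 ranked 10247, 447 and 2712 in replicates 1, 2 and 3, with its summit outside the gene in an exon of pals-26. srpr-2.1 ranked 1632 in replicate 2 and had no summit within 200 bp in replicates 1 and 3.

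Of the better-known noncoding RNAs looked up by symbol, which were rncs-1, tts-1, rpr-1, mrpr-1, yrn-1 and lep-5, none was a member. The starts of rncs-1, an RNA that interferes with Dicer in C. elegans, and of tts-1, a long RNA associated with ribosomes in long-lived worms, had summits at ranks 1225 (signal 27.6) and 319 (signal 44.7) of the pooled list, but both genes lie on the X chromosome. rpr-1, the RNA of RNase P, and mrpr-1, the RNA of RNase MRP, had summits just below the threshold, at ranks 3157 and 3033. yrn-1, a Y RNA, and lep-5, a lincRNA that times male tail development, had no summit within 500 bp anywhere in the pooled list.

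Within the window set by the rule, summits crowded at the start and shortly after it. Their median position was 23 bp downstream of the start along the gene, with 109 members, 47.6%, within 100 bp on either side and 161, 70.3%, within 200 bp. Upstream summits numbered 101, 44.1%, and downstream ones 128. The fullest 50 bp bin lay 50 to 100 bp downstream and held 34 members, 32 of them inside the noncoding gene. In all, 76 members, 33.2% (27.1 to 39.7), had the summit inside the nearest noncoding gene, although the median length of these genes was only 142 bp. The share by replicate list was 28.5 ± 2.32% (SD, n = 3). The median pooled signal was 29.7 for summits inside the gene and 25.7 for those outside. The upstream share was 49.5 ± 3.42% over the replicate lists, and since the rule removes summits upstream of coding starts, it does not describe all noncoding starts.

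**Figure D2:**
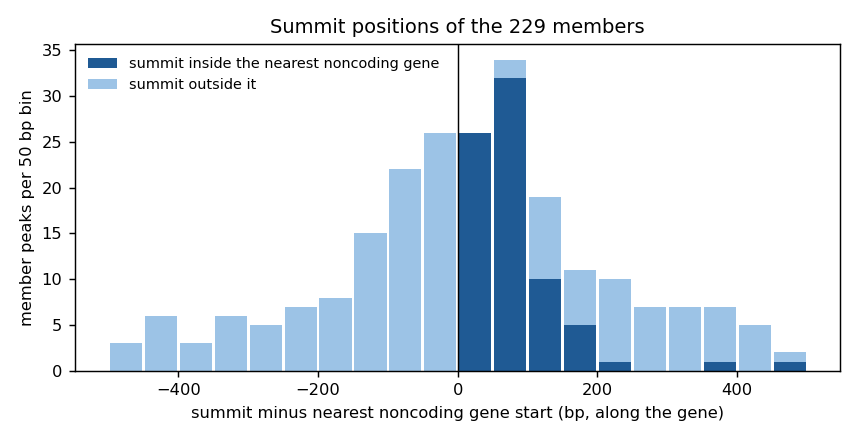
Number of members per 50 bp bin of summit position along the nearest noncoding gene, with its start at 0 and positive values downstream; dark bars are summits inside that gene and light bars those outside. The bin from 50 to 100 bp holds 34 members, and counts fall off on both sides.

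Coding genes held 93 member summits, 40.6%, against 39.3% of the other autosomal peaks. Of the 93, 78 were in introns and 15 in exons, 6 of these in coding sequence. Among these were F23H12.13 in sqt-3 and F54C9.15 in col-38, both cuticle collagen genes. T20B12.11 in mml-1, C17D12.15 in spe-9 and linc-122 in ifb-1 were also in coding sequence. All of these but linc-122 were chosen for mention after their values were seen. The noncoding gene ran opposite to its host gene in 64 of the 93, 68.8% (58.4 to 78.0). That is the strand order of the annotation itself, in which 69.3% of the noncoding starts inside coding genes on 1 strand ran opposite to the host. Only 9 members had a coding start within 500 bp, with the summit downstream of it. Another member lay within 10000 bp of 59 of the 229, some of them summits of overlapping intervals at 1 gene, such as those at linc-91. The same share over the other autosomal peaks was not computed. The chromosome arms, taken as the outer parts of each autosome when its length is cut in 3, held 48.0% of members, 49.4% of the other autosomal peaks and 53.5% of noncoding genes.

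Other small RNA genes stood beside members more often than beside other peaks. A tRNA, small nucleolar RNA (snoRNA), small nuclear RNA (snRNA) or microRNA (miRNA) start lay within 500 bp of 57 members, 24.9% (19.4 to 31.0), against 4.45% of the other autosomal peaks and 7.08% of all autosomal noncoding starts. For tRNA genes the count was 31 members, 13.5% (9.39 to 18.7), against 31 of the other peaks, 1.39%, and 3.99% of noncoding starts. So 50% of the 62 autosomal peaks near a tRNA gene were members. In the replicate lists the tRNA share was 6.57%, 10.7% and 10.4% of members, against 0.574%, 1.30% and 1.33% of the other peaks (means 9.22 ± 2.31% and 1.07 ± 0.428%, SD, n = 3), and the ranges did not overlap. The comparison with other peaks carries the position rule in it, since noncoding genes can overlap small RNA genes. The noncoding starts as counted above do not carry the exclusion of sites upstream of coding starts. Among the 4753 that it leaves, a tRNA start lay within 500 bp of 3.93%, a snoRNA start of 1.24%, a miRNA start of 1.20% and any small RNA start of 7.17%.

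In all 31 of these members the nearest noncoding gene overlapped a tRNA gene on the opposite strand. This is how the annotation draws such pairs: 192 autosomal noncoding genes overlap a tRNA gene, and in all 192 the strands are opposite. The summit was nearer to the tRNA start than to the noncoding start in 20 of the 31, and inside the tRNA gene in 14. A peak carries no strand, so signal at the tRNA gene and at the noncoding gene over it cannot be told apart. B0350.73, among the highest members, is such a pair with the tRNA gene WBGene00022903, whose start was 62 bp from the summit. It ranked 141, 49 and 62 in the replicates. The others were lower, with a median of 23.1 over the 31 members against 26.9 over the 198 members without a tRNA start nearby. The tRNA members were found in the 3000 of replicates 1, 2 and 3 in 9, 21 and 8 cases of 31, and in all 3 replicates in 1 case. The 198 others were found in 99, 137 and 104 cases, and in all 3 replicates in 49. Of all autosomal peaks, 46.9%, 62% and 43% were found in replicates 1, 2 and 3 and 15.9% in all 3. The tRNA members were at 29.0%, 67.7% and 25.8% in replicates 1, 2 and 3. No intervals were computed for these shares of 31 members, which also had the lower median signal. No difference from the background is therefore read from them. K04C2.10 and K04C2.11, named after their values were seen, are 2 such pairs in the gene brd-1, with signals of 31.4 and 28.4.

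snoRNA starts lay near 16 members, 6.99% (4.05 to 11.1), against 2.07% of the other peaks and 1.26% of noncoding starts. The highest of them was T03F7.14 with a signal of 69.8, in cutl-18, 9 bp from the start of the snoRNA gene T03F7.8. miRNA starts lay near 8 members, 3.49% (1.52 to 6.77), against 0.629% of the other peaks and 1.07% of noncoding starts. The summit of WBGene00199919, signal 58.5, fell on the start of cel-mir-52, a member of the mir-51 family, and ranked 75, 164 and 541. snRNA starts lay near 3 members, 1.31% (0.271 to 3.78), against 0.449% of the other peaks and 0.801% of noncoding starts. rRNA starts lay near 0 of the 229 members, which allows a share of up to 1.60% by the exact interval. They also lay near 0 of the other peaks and only 1 of the 5493 noncoding starts, so this count says little about members.

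**Figure D3:**
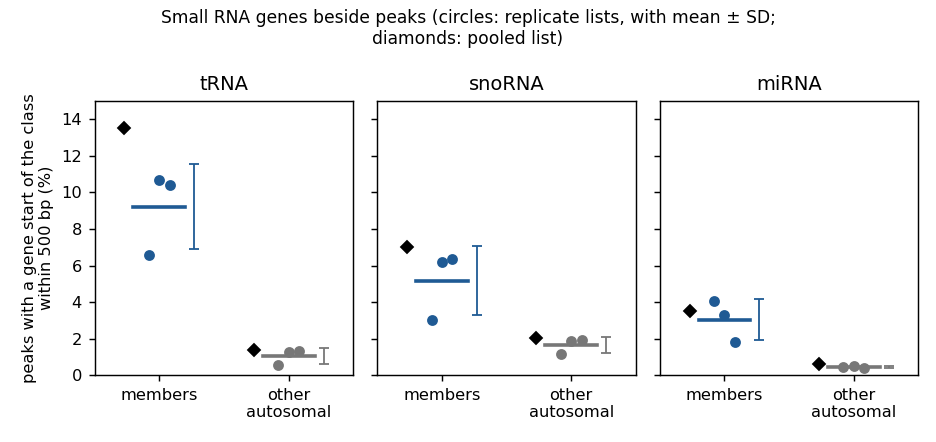
Share of peaks with a tRNA, snoRNA or miRNA gene start within 500 bp (percent), for members (left in each panel) and the other autosomal peaks (right); circles are the 3 replicate lists with their mean and SD, and diamonds the pooled list. For tRNA the members lie between 6.57% and 10.7% in the replicate lists and the other peaks between 0.574% and 1.33%.

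Sequence at the summits was not used by the rule. GC content averaged 42.1 ± 7.27% in the 201 bp around member summits and 36.0 ± 6.17% in the windows 500 bp to either side (SD over 229 peaks), a mean difference of 6.09 percentage points, and it was higher at the summit in 178 of 229 members. At the other autosomal peaks it averaged 37.6% at the summit and 35.0% in the flanks, a difference of 2.61. Windows at all autosomal noncoding starts averaged 40.1%, so that much of the level at members is shared with such starts in general. The difference between summit and flanks was 2.62, 7.39 and 4.0 for the members of replicate lists 1, 2 and 3, and 0.228, 3.45 and 0.762 for the other peaks of the same lists, so it was larger at members within each list. It was 9.11 for summits inside the noncoding gene and 4.59 for those outside, and 5.89 for the 198 members with no tRNA start nearby. Among the highest members, F40F9.14 had 51.7% at the summit and 31.6% in the flanks, and C08E8.15 had 39.8% and 22.1%, while WBGene00199919 had 43.3% and 46.8%.

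**Figure D4:**
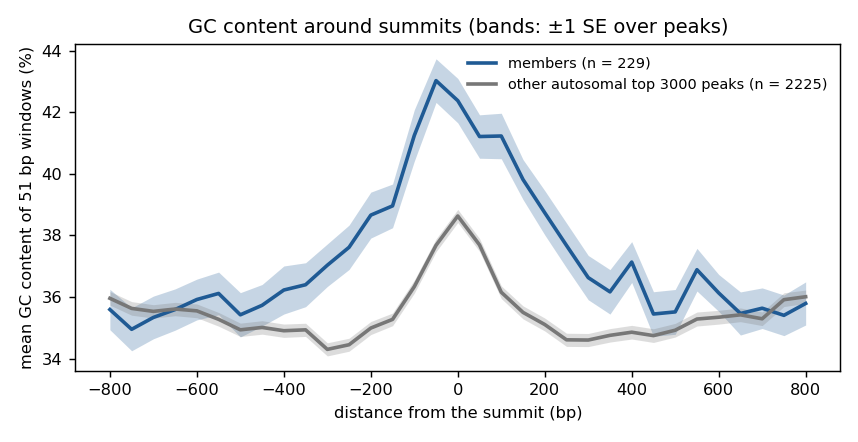
Mean GC content of 51 bp windows (percent) by distance from the summit, for the 229 members (blue) and the 2225 other autosomal peaks (grey), with bands of 1 standard error over peaks. The members reach 43.0% beside the summit and the other peaks 38.6% at it, and both curves are near 36% at 800 bp.

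Of the 8 words, each counted in either orientation in the 201 bp windows, GAGAGA was the commonest at the pooled member summits, while CCAAT was commoner at the members of replicate lists 1 and 3. GAGAGA was in 96 member windows, 41.9% (35.5 to 48.6), against 13.1% of member flanks, 33.2% (31.3 to 35.2) of the other autosomal summits and 22.5% of windows at all noncoding starts. It read along the noncoding gene in 49 members, against it in 52, and 5 of these members had it both ways. The share was 29.3%, 43.6% and 28.1% at members of the 3 replicate lists, against 21.6%, 33.5% and 23.0% at the other peaks. Replicate 2 stood highest in both sets, and members were above other peaks in each list. By signal, GAGAGA was in 49.4% of the 77 highest members, 46.7% of the 75 in the middle and 29.9% of the 77 lowest. Other autosomal peaks in the same signal ranges held it in 41.5%, 32.9% and 27.1%. The intervals of members and other peaks overlapped in each of these ranges, so the higher share at members was not clear within any of them. Most holders had a short GA stretch, with a median longest run of 7 bases. Runs of 20 or more occurred in 5, up to 69 bases at ZK1128.10 and 68 at Y111B2A.32, both named after their values were seen. The 51 bp at the summit occurred elsewhere in the genome for 5 of the 229 members, 2.18%, and 6 of the 2225 other peaks, 0.270%. These counts do not show whether those members are the ones with long GA runs. The part of repeated sequence in the signal was not tested.

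The E-box CACGTG was rarer than the GA word. It was in 21 windows, 9.17% (5.77 to 13.7), against 3.71% of member flanks, 10.5% (9.23 to 11.8) of the other summits and 2.82% of noncoding starts. Members held it about as often as other peaks, and more often than noncoding starts. Of the 15 highest members 5 had it: D2023.12, ZK829.13, F26F12.11, W06H8.16 and F40F9.14. By signal, it was in 15.6% of the 77 highest members, 5.33% of the 75 in the middle and 6.49% of the 77 lowest. Other autosomal peaks in the same signal ranges held it in 16.9%, 8.29% and 7.56%, so its higher share at high signal was not particular to members. It was in 17.1% (9.43 to 27.5) of summits inside the noncoding gene and 5.23% (2.28 to 10.04) of those outside. The nearest E-box was a median of 31.5 bp from the summit. Measured to the middle of the word, it lay at -16.5 bp from the summit in D2023.12 and at -7.5 bp in ZK829.13. The replicate lists gave 7.81 ± 1.15% for members and 8.72 ± 1.14% for other peaks (SD, n = 3).

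TGATAA, a word that GATA factors of the worm intestine bind, was less common at members than at other peaks. It was in 65 member windows, 28.4% (22.6 to 34.7), against 17.9% of flanks, 39.0% (37.0 to 41.1) of the other summits and 14.2% of noncoding starts. In the replicate lists it was in 26.8%, 23.9% and 28.1% of members, against 32.4%, 35.8% and 31.1% of other peaks, lower at members in each. C08E8.15 had 4 copies, 2 in each orientation. The GA word, the E-box or the GATA word was in 65.5% of members and 65.4% of other peaks, against 31.9% of member flanks.

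GTTCGA followed the tRNA genes. It was in 40 member windows, 17.5% (12.8 to 23.0), against 9.39% of flanks, 8.18% of the other summits and 9.72% of noncoding starts. The replicate lists gave lower shares for members, 10.6%, 11.5% and 11.8%, against 7.37%, 8.09% and 7.70% of the other peaks (means 11.3 ± 0.611% and 7.72 ± 0.362%, SD, n = 3). The 31 tRNA members had it in 17 cases, 54.8% (36.0 to 72.7), while the 198 others had it in 23, 11.6% (7.51 to 16.9). These same tRNA members had GAGAGA in 6 cases, 19.4%, against 90 of 198, 45.5%, in the others.

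The Y-box core CCAAT was in 72 member windows, 31.4% (25.5 to 37.9), against 36.9% of flanks, 30.9% of the other summits and 34.4% of noncoding starts, so it was no commoner at summits than beside them. The replicate lists gave 32.6 ± 1.14% for members and 33.1 ± 1.68% for other peaks (SD, n = 3). TATAAA was in 14.0% of member summits and 22.7% of flanks, TTTTTTTT in 16.2% and 20.5%, and TGACTCA, a word of AP-1 type factors, in 1.75% of both. At noncoding starts in general these 3 were in 15.7%, 15.6% and 1.69% of windows. A word match describes these letters in this window and nothing about the factor.

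**Figure D5:**
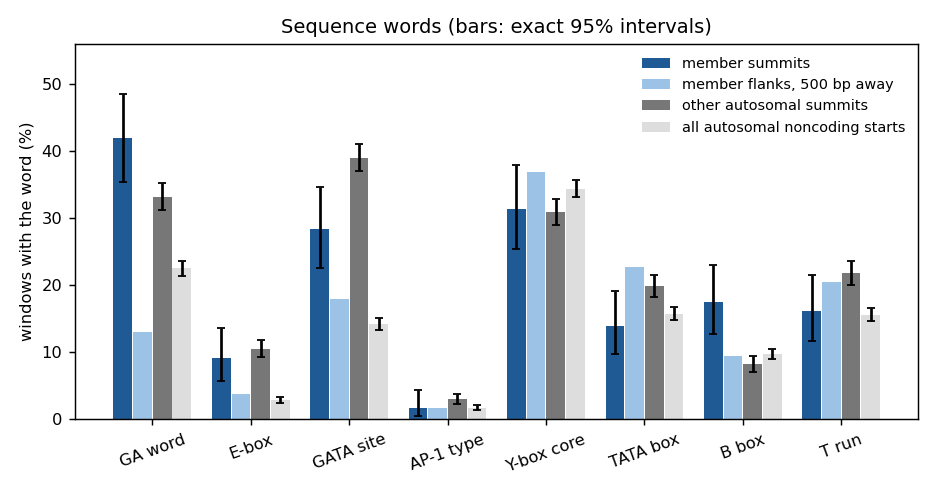
Share of 201 bp windows that hold each of the 8 words (percent), at member summits, in member flanks, at other autosomal summits and at all autosomal noncoding starts, with exact 95% intervals except for flanks; the words are named as in the text, the T run being 8 bases of T. The GA word reaches 41.9% at member summits, and the B box word is the one whose share at members is farthest above that at other peaks in proportion.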

How the data were processed

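ChIP-seq peak lists of 3 biological replicates (4 libraries), their pool and the list filtered by irreproducible discovery rate were used in build ce11. The signal value of each peak is the authors' own, against a control not analysed here, and was used only within a list. The deposited −log10 q-value has a ceiling of 3.12, shared by 65 members, and was not used to rank. The deposited summit offset in bp places each summit. Neither caller nor aligner is named in the labels or headers read; no read counts were given, so depth is unknown. Lists in ce10 were not used.

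Genes came from Ensembl release 115 (WBcel235) and sequence from the RefSeq genome of the same build; coordinates are 1-based. Shares carry exact (Clopper-Pearson) 95% intervals, which cover counting error only. No test was run: the rule used the pooled signal, peaks are not replicates, and the 3 replicate lists give the spread instead (mean ± SD), which may be partly technical. GC content and 8 words were read within 100 bp of summits and in both flanks 500 bp away. Members, gene lists, words and alternatives were chosen with earlier results of these data known. Named genes are those nearest the 15 highest members, the highest of each autosome, members with symbols, the 10 with the lowest worst replicate rank, the 3 on each side of the threshold, the better-known noncoding RNAs, and their coding hosts and neighbours. The rule was tested on simulated summits. Python 3.11.15, pandas 2.3.3, numpy 2.4.6, scipy 1.17.1 and matplotlib 3.10.9 were used.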

Additional observations from a re-analysis of the deposited data

How the results depend on the processing

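The number of members stayed within 1.5 times of 229 under every alternative tried, from 161 among the top 2000 to 330 with a 1000 bp window. The difference in GC content was between 5.34 and 6.95 percentage points under other windows and peak numbers, but 2.62 in the list of replicate 1, 7.39 in replicate 2 and 4.0 in replicate 3. The upstream share was 43.8% and 47.0% with windows of 250 and 1000 bp, and 53.4% in the list of replicate 3. With only the top 2000 peaks of a replicate, the share of members found was 40.2% in replicate 1 and 56.3% in replicate 2; with the top 4000 it was 77.7% in replicate 2. With summits within 100 bp it was 59.8% in replicate 2 and 37.1% in replicate 3. Leaving out 1 replicate, members found in both others ranged from 27.1% (without replicate 2) to 38.0% (without replicate 1).

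Word shares follow the window by construction. With 50 bp on either side of the summit they were 24.9% for GAGAGA, 5.68% for CACGTG, 18.8% for TGATAA, 14.8% for CCAAT, 6.55% for TATAAA, 7.86% for GTTCGA and 8.30% for TTTTTTTT; with 150 bp they were 50.7%, 14.8%, 35.8%, 42.8% and 22.3% for the first 5, and 22.3% for TTTTTTTT. By replicate list, GAGAGA was at 29.3% in replicate 1 and 28.1% in replicate 3, GTTCGA at 10.6%, 11.5% and 11.8% in replicates 1 to 3, and TTTTTTTT at 9.88% in replicate 2; the cause was not tested. So the 17.5% for GTTCGA in the pooled list was above all 3 replicate lists. Alternatives chosen after seeing the data, which include GC content and the upstream share by replicate list, put GTTCGA at 11.6% without the tRNA members, the tRNA share at 6.57% in replicate 1 and summits inside the noncoding gene at 26.2% in replicate 3. Of 97 alternatives, 66 counted as unchanged, but not all by the error of the value reported. For the number of members, 161 and 330 still counted as unchanged against 229. For the difference in GC content, 4.0 in the list of replicate 3 counted as unchanged against 6.09. Taking 1 summit per interval could change nothing, since the 229 members had 229 distinct intervals. The count of 66 therefore overstates how stable the values were. No paired analysis was possible because all samples belong to 1 group. Without reads, the depth behind single peaks is unknown.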

Other observations

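Members formed 5 clusters of at least 3 with neighbours no more than 10000 bp apart; their genes were named after their values were seen. On chromosome V, 4 members at W06H8.15, W06H8.5, W06H8.16 and W06H8.14 spanned 13751 bp in and beside W06H8.6 and rme-1, a gene of endocytic recycling, with signals from 23.2 to 62.3. Another 4 at F55C5.12 and F55C5.16 spanned 4709 bp, with signals from 22.1 to 44.2. The 3 at T28B11.18, T28B11.22 and T28B11.13 spanned 4133 bp within T28B11.1, with signals from 22.8 to 64.3. On chromosome III, 3 members in brd-1, the worm BARD1 gene, lay within 1009 bp, at K04C2.10, K04C2.11 and K04C2.9, with signals from 21.3 to 31.4. On chromosome II, F31E8.20, F31E8.10 and C04A2.13 spanned 6493 bp, with signals from 22.1 to 38.6. Members of a cluster may share fragments and are not independent. Clusters were not counted among the other autosomal peaks or the noncoding genes, so they are not shown to be a trait of members.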
